A study of Mus musculus with 2 samples.

Results

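The miR-25/92 seed family is a set of microRNAs (miRNAs, short RNAs that guide silencing proteins to messenger RNAs) that share the bases used to find their targets. Its members are miR-92a-3p, miR-25-3p, miR-363-3p, miR-92b-3p and miR-32-5p. They were taken by name from the miRNA tables of 2 mouse helper T cell libraries, and all 5 were listed in both libraries, out of 1125 miRNAs listed in at least 1 of them. The Th17 library came from cells cultured toward the interleukin-17-producing helper lineage and the Th0 library from control cells, and both cultures began with naive CD4+CD62L+ T cells from the spleens of female C57BL/6 mice, in medium with 10% serum. Th17 cultures received anti-CD28 (1 µg/ml), anti-IL-4, anti-IFN-γ, anti-IL-2 and anti-IL-12 (5 µg/ml each), TGF-β (2 ng/ml), IL-6 (40 ng/ml), IL-1β (10 ng/ml) and IL-23 (40 ng/ml), with 6 to 7 days of culture stated. Th0 cultures received anti-IL-4 and anti-IFN-γ (5 µg/ml each) and anti-CD28 (1 µg/ml), so these 3 antibodies were common to both groups, and their culture time is not stated separately. Cytokines, blocking antibodies and any difference in culture time therefore cannot be told apart.

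The labels speak of triplicates, but each group is 1 column of reads here. No difference could therefore be set against the variation among cultures, and no p-value is given. Th17 had 11975371 listed reads and Th0 8358010. Levels are reads scaled to 1000000 listed reads of the same library (CPM). Every interval is a 95% interval of the counting error of reads. Copies made by PCR were not marked by molecular identifiers, so the intervals do not cover variation from PCR. Fewer cells of a type and less of a miRNA per cell cannot be told apart in such bulk libraries. The 5 lymphocyte miRNAs examined stood between 1153 and 65898 CPM in Th17 and between 2194 and 58347 CPM in Th0. The 7 markers of myeloid, erythroid, liver, muscle and endothelial cells summed to 24.1 CPM in Th17 and 51.8 CPM in Th0, most of it the endothelial miR-126a-3p (14.9 CPM in Th17 and 47.7 CPM in Th0), and the muscle marker miR-1a-3p was at 0 in both. miR-126a-5p, from the same precursor as miR-126a-3p, was not among these 7. It had 71.0 CPM in Th17 and 143 CPM in Th0, more than the sum of the 7 in each library. The part of these markers in the results below was not tested. The messenger RNAs that define Th17 cells were not analysed here.

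A miRNA pairs with its targets mainly through its seed, the bases 2 to 8 counted from its 5′ end, and miRNAs with the same seed can repress overlapping sets of messenger RNAs wherever they are encoded. The family is encoded at several loci, some of them in paralogous clusters. Mir92-1 is the last hairpin of the Mir17 cluster, an oncogenic transcript unit that promotes lymphocyte proliferation and survival. Mir92-2 and Mir363 belong to its X-linked paralog, the Mir106a cluster, and Mir25 to a further paralog, the Mir106b cluster, inside the replication licensing gene Mcm7. Mir92b and Mir32 stand outside these clusters.

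The mature sequences are shown because the shared seed defines the family while the remaining bases separate the members. They are RefSeq sequences of build GRCm38.p6, written 5′ to 3′ with the seed in capitals.
miR-92a-3p: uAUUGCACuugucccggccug
miR-25-3p: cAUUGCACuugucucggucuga
miR-92b-3p: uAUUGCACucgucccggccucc
miR-363-3p: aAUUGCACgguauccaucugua
miR-32-5p: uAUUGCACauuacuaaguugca

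Downstream of the seed the members fell into a close group and a distant one. Over the 13 bases after the seed, miR-25-3p and miR-92b-3p each matched miR-92a-3p at 11 bases, whereas miR-363-3p and miR-32-5p each matched it at 3. miR-92b-3p differed from miR-92a-3p by U10C and G21C, with the miR-92a-3p base first and positions counted from the 5′ end, and is longer (22 bases against 21). miR-25-3p differed by U1C, C14U and C18U. The G+C content was 63.6% for miR-92b-3p, 57.1% for miR-92a-3p, 50.0% for miR-25-3p, 40.9% for miR-363-3p and 31.8% for miR-32-5p. How many mismatches the authors allowed when assigning reads is not stated in the labels, so reads of miR-92a-3p and miR-92b-3p are uncertain as separate counts. A further mouse miRNA with this seed, miR-367-3p from the Mir302 cluster of pluripotent cells, was listed in neither library, and a count of 0 allows up to 0.251 CPM in Th17 and 0.359 CPM in Th0.

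The seed pairs with the site GUGCAAU in a messenger RNA. This 7-base site, searched as GTGCAAT on the sense strand, occurred in 6.55% of 20981 mouse 3′ untranslated regions (the longest per gene, GENCODE M21). Sites in Bcl2l11, which encodes the pro-apoptotic protein BIM, are shown because this gene is a known target of the Mir17 cluster in lymphocytes. The Bcl2l11 region held 2 sites, at chr2:128161163-128161192 and chr2:128162438-128162467, both on the plus strand of GRCm38. Among regions within 25% of its length, 18.1% held the site. A match is a description of letters, and the level of this messenger RNA was not analysed here. Capitals mark the site.
Bcl2l11, upstream site: caaatgtctctGTGCAATtgtgttcccttt
Bcl2l11, downstream site: ccactgtacctGTGCAATactgctgtaaat

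Summed as a single seed family, the 5 members were lower in Th17 than in Th0. They had 776456 reads or 64838 CPM in Th17, against 967765 reads or 115789 CPM in Th0, which is 1.79-fold lower (interval 1.78 to 1.79). The family took 6.48% of the listed reads in Th17 (exact binomial interval 6.47 to 6.50%) and 11.6% in Th0 (11.56 to 11.60%). The difference amounted to 50951 CPM, of which miR-92a-3p made up 95.4%. Without miR-92a-3p the other 4 members summed to 15797 CPM in Th17 and 18158 CPM in Th0, 1.15-fold lower (1.14 to 1.16). The sum therefore describes miR-92a-3p for the most part, and the members below it went different ways.

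**Figure D1:**
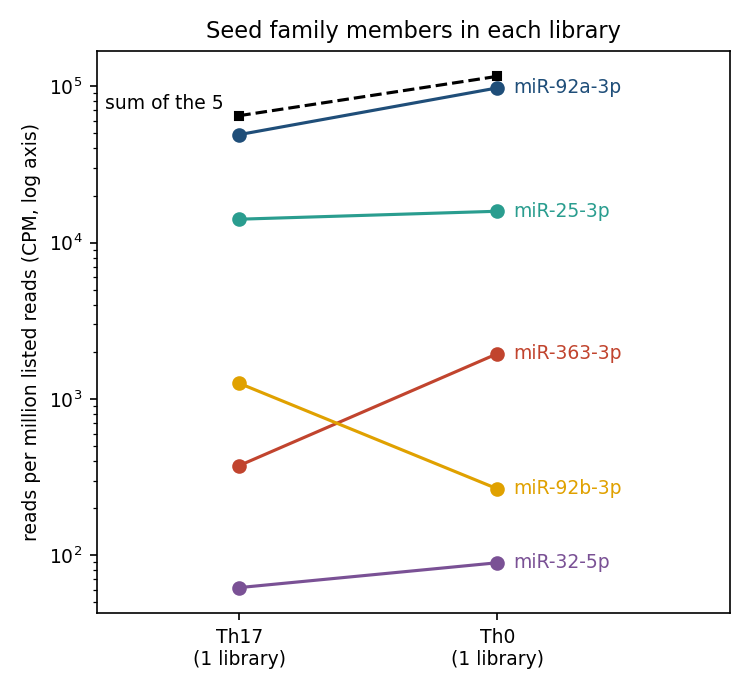
Levels of the 5 members and of their sum in the Th17 library (left) and the Th0 library (right), in CPM on a log axis, with 1 library per group and lines joining the same miRNA. The lines of miR-363-3p and miR-92b-3p cross, at 374 and 1257 CPM in Th17 and 1945 and 265 CPM in Th0, while miR-25-3p is nearly level.

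miR-92a-3p, the member produced by both the chromosome 14 and the chromosome X cluster, was the most abundant. It had 587284 reads or 49041 CPM in Th17 and 816003 reads or 97631 CPM in Th0, and stood at rank 6 of the Th17 library and rank 2 of the Th0 library. The level was 1.99-fold lower in Th17 (interval 1.98 to 2.00), just short of the 2-fold mark. It passed that mark on the authors' deposited TPM values, with a log2 ratio of -1.001, and with a scaling total that omits the 10 most abundant miRNAs, with -1.12.

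miR-25-3p, the Mir106b-cluster member, followed it in both libraries. It had 168898 reads or 14104 CPM in Th17 and 132540 reads or 15858 CPM in Th0, a level 1.12-fold lower in Th17 (1.12 to 1.13). Its rank was 16 in Th17 and 12 in Th0. Of the members it differed least between the libraries. Because miR-92a-3p differed more, miR-25-3p had 28.8 reads per 100 reads of miR-92a-3p in Th17, against 16.2 in Th0, a 1.77-fold larger proportion (log-normal counting interval 1.76 to 1.78). Such a proportion within a library does not depend on how the libraries are scaled.

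miR-363-3p, encoded beside Mir92-2 on chromosome X, was the member that was lowest in Th17 relative to Th0. It had 4478 reads or 374 CPM in Th17 and 16256 reads or 1945 CPM in Th0, 5.20-fold lower (5.03 to 5.38). It moved to rank 104 in Th17, against rank 49 in Th0.

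miR-92b-3p, encoded alone on chromosome 3, went the other way. It had 15054 reads or 1257 CPM in Th17 and 2219 reads or 265 CPM in Th0, 4.73-fold higher (4.53 to 4.95). It was at rank 64 in Th17, against rank 113 in Th0. Its reads equalled 2.56% of the miR-92a-3p reads in Th17 and 0.272% in Th0, so this proportion between the near-identical pair was 9.43-fold larger in Th17 (9.01 to 9.86).

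miR-32-5p, from a hairpin in an intron of Tmem245, was the least abundant member. It had 742 reads or 62.0 CPM in Th17 and 747 reads or 89.4 CPM in Th0, 1.44-fold lower (1.30 to 1.60). It stood at rank 173 in Th17 and rank 165 in Th0.

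The order of levels from high to low was miR-92a-3p, miR-25-3p, miR-92b-3p, miR-363-3p and miR-32-5p in Th17. In Th0 it was the same except that miR-363-3p stood above miR-92b-3p. Within each library the neighbours in this order were separated by more than their counting intervals, and the spread over cultures is unknown. There were 3.36 reads of miR-92b-3p for each read of miR-363-3p in Th17, whereas Th0 had 7.33 reads of miR-363-3p for each read of miR-92b-3p. The balance between these 2 members thus differed 24.6-fold (23.3 to 26.0) between the libraries.

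The make-up of the family reads differed accordingly. miR-92a-3p supplied 75.6% of them in Th17 (exact binomial interval 75.54 to 75.73%) and 84.3% in Th0 (84.25 to 84.39%). miR-25-3p supplied 21.8% in Th17 (21.66 to 21.84%) and 13.7% in Th0 (13.63 to 13.76%). Together these abundant members left little room for the rest. miR-92b-3p had 1.94% of the family reads in Th17 and 0.229% in Th0, miR-363-3p 0.577% in Th17 and 1.68% in Th0, and miR-32-5p 0.0956% in Th17 and 0.0772% in Th0.

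**Figure D2:**
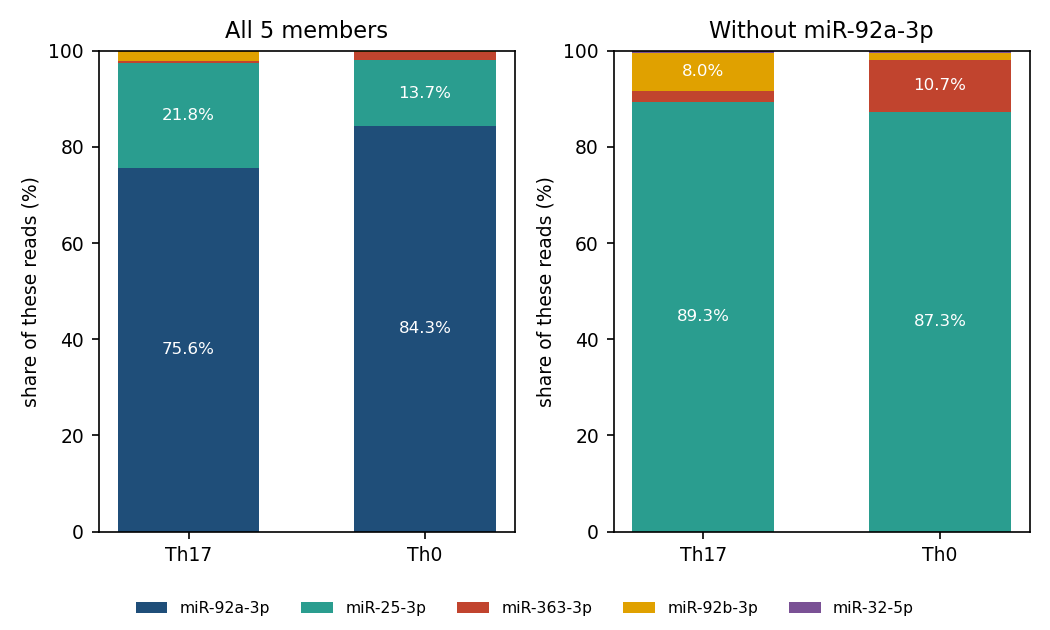
Share of the family's reads held by each member in Th17 and Th0 (percent of reads, 1 library each), for all 5 members (left panel) and without miR-92a-3p (right panel). In the right panel miR-92b-3p holds 8.0% in Th17 and 1.5% in Th0, and miR-363-3p holds 2.4% in Th17 and 10.7% in Th0.

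All 5 members passed a mean of 10 CPM over both libraries, as did 298 of the 1125 miRNAs. Of the 5, 1 (miR-92b-3p) was at least 2-fold higher in Th17, against a background of 6.71% of the 298. Another (miR-363-3p) was at least 2-fold lower, against a background of 13.1%, and the other 3 were within 2-fold. Either direction together held 19.8% of the background, 20 miRNAs higher and 39 lower, or 15 higher and 48 lower of the same 298 with the total that omits the 10 most abundant. With 5 members these counts are too small to set the family apart from the background. The median log2 ratio of Th17 over Th0 was -0.53 for the members and -0.08 for all 298. Among the 298, 4 miRNAs had a higher ratio than miR-92b-3p and 11 had a lower one than miR-363-3p. miR-92a-3p had 40 below it, miR-32-5p 83 and miR-25-3p 132, so miR-25-3p lay near the middle of the distribution.

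**Figure D3:**
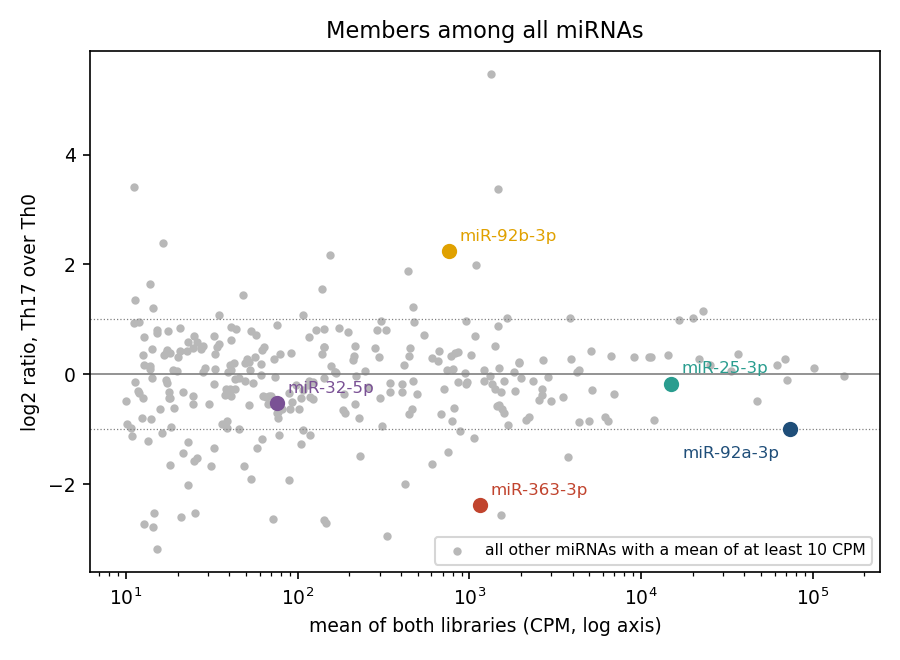
Log2 ratio of Th17 over Th0 against the mean of both libraries (CPM, log axis) for the 298 miRNAs that averaged 10 CPM or more (grey) and the 5 members (coloured), with dotted lines at 2-fold. miR-92b-3p (2.24) and miR-363-3p (-2.38) lie toward opposite edges of the cloud, and miR-92a-3p (-0.99) lies on the lower line at the abundant end.

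The loci of miR-92a-3p could be told apart only through the opposite, 5p arms of its hairpins, since the 3p arm is the same. The hairpins are shown for this reason (RefSeq, GRCm38.p6), with the mature 5p arm and then the mature 3p arm in capitals. Mir92-1 lies at chr14:115044427-115044506 on the plus strand, in an exon of the noncoding host Mir17hg. Mir92-2 lies at chrX:52741838-52741928 on the minus strand, where GENCODE M21 has no host gene.
Mir92-1: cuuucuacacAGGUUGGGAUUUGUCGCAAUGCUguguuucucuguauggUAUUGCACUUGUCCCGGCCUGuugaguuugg
Mir92-2: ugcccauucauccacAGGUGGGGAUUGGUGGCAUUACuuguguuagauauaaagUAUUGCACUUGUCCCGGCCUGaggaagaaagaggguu

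The chromosome 14 arm made up nearly all of the 5p reads. miR-92a-1-5p had 6215 reads or 519 CPM in Th17 and 7126 reads or 853 CPM in Th0, 1.64-fold lower (1.59 to 1.70). The chromosome X arm, miR-92a-2-5p, had 2 reads in Th17 and 28 in Th0, a ratio of Th17 over Th0 of 0.050 with a counting interval of 0.0058 to 0.198. Of the reads of both 5p arms, Mir92-1 held 99.97% in Th17 (99.88 to 99.996%) and 99.6% in Th0 (99.43 to 99.74%). The 2 hairpins need not yield 5p and 3p arms in the same proportion, so these shares do not divide the miR-92a-3p reads between the chromosomes.

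The opposite arms of the other hairpins gave a further readout, though from the same hairpins and the same libraries, so they add no replicate. miR-363-5p had 90 reads or 7.52 CPM in Th17 and 360 reads or 43.1 CPM in Th0, 5.73-fold lower (4.54 to 7.30), and the interval included the ratio of miR-363-3p. miR-25-5p had 1087 reads or 90.8 CPM in Th17 and 870 reads or 104 CPM in Th0, 1.15-fold lower (1.05 to 1.25), again including the ratio of the member arm. Both arms of these hairpins were thus lower in Th17. miR-32-3p had 34 reads in Th17 and 35 in Th0, and its interval for Th17 over Th0 (0.410 to 1.12) included 1. miR-92b-5p had 8 reads in Th17 and 4 in Th0, a ratio of 1.40 with an interval of 0.374 to 6.33. That interval included both 1 and the ratio of miR-92b-3p, so the higher level of miR-92b-3p could not be checked on its other arm at this depth.

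The member arm dominated every hairpin in both libraries. Its share of the reads of both arms was 98.95% in Th17 and 99.13% in Th0 for miR-92a-3p (both hairpins joined), 99.4% in Th17 and 99.3% in Th0 for miR-25-3p, and 98.0% in Th17 and 97.8% in Th0 for miR-363-3p. It was 99.95% in Th17 and 99.8% in Th0 for miR-92b-3p, and 95.6% in Th17 and 95.5% in Th0 for miR-32-5p. The exact binomial intervals of the libraries overlapped for all but miR-92a-3p, whose intervals were 98.93 to 98.98% in Th17 and 99.11 to 99.15% in Th0.

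Within the Mir17 cluster, miR-92a-3p differed least between the libraries of the 6 guide arms compared. The other guide arms of this cluster, which include the cell-cycle-linked miR-17-5p and miR-20a-5p as well as miR-19b-3p and miR-19a-3p, had log2 ratios from -1.15 (miR-17-5p) to -2.71 (miR-19a-3p), against -0.99 for miR-92a-3p. In Th17 there were 1255 reads of miR-92a-3p for each read of miR-19a-3p, against 383 in Th0, a 3.28-fold larger number (2.97 to 3.63). Against miR-17-5p the numbers were 74.0 in Th17 and 66.4 in Th0, 1.12-fold larger (1.08 to 1.15). Among opposite arms of the neighbouring hairpins, miR-18a-3p (-0.20) and miR-17-3p (-0.79) differed less than miR-92a-3p, and miR-20a-3p (-1.21) differed more. The place of miR-92a-3p thus holds for the guide arms only. miR-19b-3p and miR-92a-3p also have a precursor on chromosome X, and a single primary transcript need not yield its miRNAs in equal numbers.

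In the Mir106a cluster, Mir363 lies at chrX:52741693-52741767 on the minus strand, next to Mir92-2. miR-363-3p was lower in Th17, as were the 5 other guide arms compared, but miR-92a-3p (-0.99) differed less than the rest. miR-92a-3p and miR-19b-3p are also encoded in the Mir17 cluster, so their ratios do not describe the Mir106a cluster alone. The proportion of miR-363-3p to miR-92a-3p was 2.61-fold smaller in Th17 (2.53 to 2.70). The log2 ratios of the other 4 were -2.95 for miR-20b-5p, -2.64 for miR-106a-5p, -2.63 for miR-18b-5p and -2.56 for miR-19b-3p, against -2.38 for miR-363-3p. Relative to miR-20b-5p, miR-363-3p had 4.93 reads for each read in Th17 and 3.33 in Th0, 1.48-fold more (1.37 to 1.60). The distance to miR-19b-3p and miR-18b-5p was smaller, at 1.13-fold (1.08 to 1.18) against miR-19b-3p and 1.19-fold (1.03 to 1.37) against miR-18b-5p.

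Mir25 lies at chr5:138165321-138165404 on the minus strand inside Mcm7, in an exon of a retained-intron transcript. The guide arms of its cluster neighbours have the miR-17 seed and had lower ratios of Th17 over Th0 than miR-25-3p. miR-93-5p had 8618 CPM in Th17 and 15275 CPM in Th0, 1.77-fold lower (1.76 to 1.79). miR-106b-5p had 569 CPM in Th17 and 1026 CPM in Th0, 1.80-fold lower (1.75 to 1.86). miR-25-3p had 1.64 reads for each read of miR-93-5p in Th17 and 1.04 in Th0, 1.58-fold more (1.56 to 1.59). Against miR-106b-5p it was 1.60-fold more (1.55 to 1.66). The guide arms of both neighbours thus kept nearly the same ratio, and miR-25-3p differed from them by more than the counting intervals. The opposite arms of these neighbours lay nearer miR-25-3p (-0.17), with log2 ratios of -0.26 for miR-106b-3p and -0.15 for miR-93-3p. miR-106b-3p had 648 CPM in Th17, above miR-106b-5p there, and 776 CPM in Th0, below it. The contrast with miR-25-3p therefore depends on the arm compared.

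**Figure D4:**
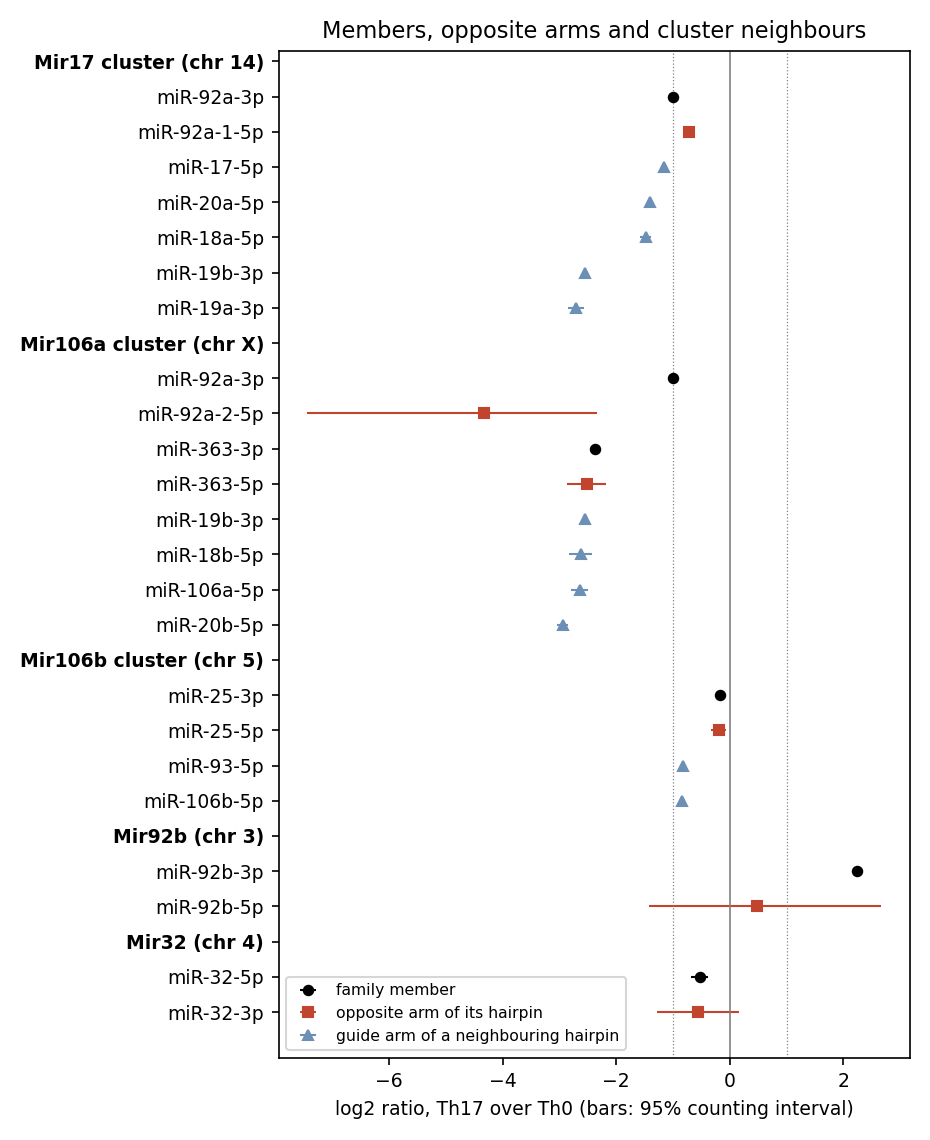
Log2 ratio of Th17 over Th0 for each member (circles), the opposite arm of its hairpin (squares) and the guide arms of neighbouring hairpins (triangles), grouped by locus, with 95% counting intervals and dotted lines at 2-fold. miR-92a-3p and miR-19b-3p appear under both clusters that encode them. The Mir106a-cluster arms other than miR-92a-3p lie left of -2, and miR-25-3p (-0.17) lies right of the guide arms of its neighbours.

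Mir92b lies at chr3:89227116-89227198 and Mir32 at chr4:56895229-56895298, both on the minus strand. Mir92b has no annotated host. Mir32 lies in an intron of the protein-coding gene Tmem245, on the same strand. Against miR-25-3p, there were 228 reads for each read of miR-32-5p in Th17 and 177 in Th0, so miR-32-5p had 1.28-fold fewer reads relative to miR-25-3p in Th17 (1.16 to 1.42).

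The family was also set beside other seeds, with reads summed over all listed miRNAs that share bases 2 to 8. Of the 1125 miRNAs, 935 had a RefSeq mature sequence, holding 95.1% of the reads in Th17 and 95.7% in Th0, so some sums lack members. Among these 810 seeds the miR-25/92 family was at rank 7 in Th17 and rank 2 in Th0. By the mean of both libraries, the 5 seeds with the most reads were those of miR-21a-5p, miR-27b-3p, miR-92a-3p, let-7f-5p and miR-191-5p. The seed of miR-21a-5p, an activation-induced miRNA, was first in both libraries, at 15.0% in Th17 and 15.3% in Th0. The miR-27 seed had 10.9% in Th17 and 10.3% in Th0, the let-7 seed 9.08% in Th17 and 7.98% in Th0, and the miR-191-5p seed 6.84% in Th17 and 7.36% in Th0. These 4 stayed within 1.14-fold between the libraries. Other abundant seeds differed more: the miR-16-5p seed was 1.42-fold lower in Th17, and the miR-181a-5p, miR-29a-3p and miR-155-5p seeds were 1.56-fold, 1.98-fold and 2.21-fold higher. Of the 44 seeds with a mean of at least 1000 CPM, 6 had a lower ratio than the miR-25/92 seed.

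Of the seeds that share clusters with the family, the miR-17 seed (6 miRNAs) had 10372 CPM in Th17 and 19688 CPM in Th0. Its log2 ratio was -0.92, near the -0.84 of the miR-25/92 seed. Most reads of the miR-17 seed were miR-93-5p (8618 CPM in Th17 and 15275 CPM in Th0), with a log2 ratio of -0.83. The other miRNAs of the miR-17 seed ran from -0.85 (miR-106b-5p) to -2.95 (miR-20b-5p). The miR-19 seed (2 miRNAs) had 485 CPM in Th17 and 2878 CPM in Th0, a log2 ratio of -2.57. In CPM, the difference between the libraries was larger for the miR-25/92 seed (50951) than these other seeds held in Th0. With 1 library per group the differences between these seeds were not tested.

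**Figure D5:**
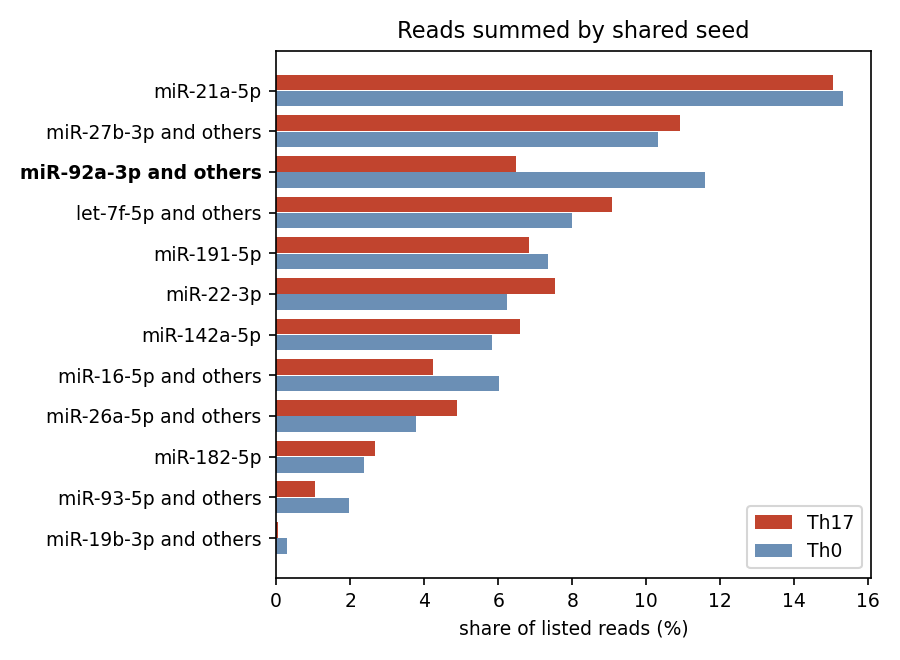
Share of listed reads (percent) summed by shared seed in Th17 (upper bars) and Th0 (lower bars), for the 10 seeds with the highest mean and the miR-17 (miR-93-5p and others) and miR-19 (miR-19b-3p and others) seeds. Each label gives the most abundant miRNA of the seed, and the miR-25/92 seed (miR-92a-3p and others) has 6.48% in Th17 and 11.6% in Th0.

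The miRNAs outside the family whose log2 ratio was nearest that of its sum (-0.84), among 154 averaging 100 CPM or more, were miR-15b-5p (-0.84), miR-342-3p (-0.84) and miR-186-5p (-0.85). Nearest to single members were miR-126a-5p (-1.02) for miR-92a-3p, miR-301a-3p (-0.17) for miR-25-3p, miR-19b-3p (-2.56) for miR-363-3p, miR-155-3p (2.17) for miR-92b-3p and miR-3968 (-0.55) for miR-32-5p. Likeness here is the absolute difference of a single log2 ratio between 2 libraries, so it carries little information.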

How the data were processed

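Small RNA from Th17 and Th0 cultures was sequenced on an Illumina HiSeq instrument after TruSeq small RNA preparation, per the labels. For each library the authors deposited whole-number read counts per mature miRNA and TPM values. The deposited TPM values equal the counts times a constant per library, whose implied total exceeds the listed reads. Per the submitters' processing notes, mm10 was the genome build. The aligner, the miRNA annotation release, the assignment of reads that match several miRNAs and the combining of triplicates are not stated in the labels or headers.

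Counts were divided by each table's sum (11975371 for Th17, 8358010 for Th0), and a miRNA missing from a table was taken as 0. Ratios carry exact intervals conditional on the sum of both counts. Proportions between miRNAs carry log-normal (Wald) intervals. Shares carry Clopper-Pearson intervals. A 2-fold mark and a mean of at least 10 CPM served as the background rule. The ratio procedure was run on simulated counts that held counting error only, so this run did not cover PCR or culture variation. Alternatives used edgeR 4.0.16 TMM factors, DESeq2 1.42.0 size factors (R 4.3.3), a total without the 10 most abundant miRNAs and the deposited TPM. Python 3.11.15 and SciPy 1.17.1 were used. Sequences are from RefSeq (GRCm38.p6), hosts and untranslated regions from GENCODE M21, and mm10 is the same assembly. Members and lists were chosen with earlier results of these data known. Named miRNAs are the members, their opposite arms, the guide arms and some opposite arms of cluster neighbours, same-seed miRNAs, the nearest ratios, the leading seeds and cell type markers.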

Additional observations from a re-analysis of the deposited data

How the results depend on the processing

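Another scaling shifts every log2 ratio of Th17 over Th0 by 1 constant: 0.01 with TMM, 0.08 with DESeq2 size factors, -0.13 without the 10 most abundant miRNAs in the total and -0.01 with the deposited TPM. No member and no family sum changed direction under these 4. The family sum (-0.84) became -0.83, -0.76, -0.97 and -0.84 in that order, and -0.20 when miR-92a-3p was left out of the sum. miR-92a-3p (-0.99) became -0.98, -0.92, -1.12 and -1.001. The count of members at least 2-fold lower was therefore 2 instead of 1 without the 10 most abundant and with TPM. The background share at least 2-fold lower was 16.8% of 393 miRNAs without the 10 most abundant. With TPM it was 13.9% of 295 miRNAs. With DESeq2 factors and without the 10 most abundant, miR-25-3p (-0.17) was -0.091 and -0.30, miR-363-3p (-2.38) was -2.30 and -2.51, and miR-92b-3p (2.24) was 2.32 and 2.11. miR-32-5p stayed within its counting interval throughout. The background was 20 higher and 39 lower of 298 miRNAs (6.71% and 13.1%). At a mean of at least 100 CPM it was 13 and 15 of 158 (8.23% and 9.49%). With no minimum it was 269 and 263 of 1125 (23.9% and 23.4%). DESeq2 factors gave 26 and 36 of 297 (8.75% and 12.1%). Without the 10 most abundant in the total, CPM values rise, so 393 miRNAs pass the 10 CPM minimum, with 29 higher (7.38%) and 66 lower (16.8%). Among the same 298 miRNAs this scaling gave 15 higher and 48 lower. miR-367-3p, the other miRNA of the seed, was not listed, so a sum with it gives no new value. No paired analysis was possible because each group has 1 library. Depth limits miR-92b-5p, miR-92a-2-5p and miR-32-3p, which had 35 reads or fewer in each library.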
